A study of Cyanidioschyzon merolae strain 10D with 4 samples.

Results

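The nitrate assimilation genes described here serve the path from nitrate to glutamine in the single-celled red alga Cyanidioschyzon merolae (strain 10D). They were examined together with MYB1, a transcription factor of the nitrogen response. The 5 genes were chosen by identifier from a table of 5100 genes: CMG018C (nitrate transporter), CMG019C (nitrate reductase), CMG021C (nitrite reductase), CMI233C (glutamine synthetase) and CMJ282C (MYB1). Their roles came with the choice of identifiers. The reference gene table lists all 5 as protein-coding loci and gives no product names, so the roles could not be checked against it. RNA was sequenced from wild-type cells grown in the medium 2xMA: 2 libraries represent a 30-minute blue light exposure at 15 µmol m-2 s-1 and 2 represent darkness. The treatment text of the labels is the same for all 4 libraries, so the groups were taken from the titles and the protocol entry of the labels. The labels do not give the nitrogen source of the medium, and they do not say how long the cells had been in darkness. The series' design text calls the libraries biological duplicates, but the sample labels do not say that they came from separate cultures. Without that, the spread behind the p-values may be technical.

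In algae and plants, nitrate enters the cell through a transporter of the plasma membrane and is reduced to nitrite in the cytosol by nitrate reductase. Nitrite is reduced to ammonium by nitrite reductase, which in photosynthetic eukaryotes works in the plastid, and glutamine synthetase joins ammonium to glutamate. In C. merolae, MYB1 is known as an R2R3-type MYB protein that accumulates when nitrogen is depleted and is needed for the rise of nitrogen assimilation genes under that condition.

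Transcripts of all 4 transport and assimilation genes were higher under blue light than in darkness, whereas those of MYB1 were not. The difference passed the authors' test for nitrite reductase and glutamine synthetase. It did not pass for the nitrate transporter, although its ratio was the highest that could be computed in the group, and nitrate reductase had no valid test. In the authors' deposited table, a gene was counted as changed when its q-value, the p-value corrected for the number of genes tested, was under 0.05. Of the 4 members with a valid test, 2 rose, 2 did not pass and 0 fell by Cuffdiff. Over all 4503 tested genes, 53.2% changed, with 27.1% higher and 26.1% lower under blue light. With 4 genes tested, this count by itself says little about the group. The median log2 fold change of the 4 tested members, computed from the deposited FPKM, was 3.77, beside -0.017 over the 4496 tested genes with a finite value. The members did not move alike, with log2 fold changes from -0.36 to 6.26, so the median describes them only loosely. FPKM values (fragments per kilobase, scaled to depth) can be compared between genes. The libraries were made from whole cultures, so a higher level in each cell and a larger share of responding cells cannot be told apart.

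The table gives 1 value per condition, and single libraries were recovered from these values where they could be written as whole fragments of a deeper and a shallower library. The blue light libraries were the less deeply sequenced ones. Their fitted depths corresponded to 540167 and 418040 fragments under blue light and to 845127 and 643989 fragments in darkness. Over the 3032 genes with a single solution, the recovered fragments amounted to 215993 and 169098 under blue light and to 320407 and 243613 in darkness. These libraries carry no replicate number.

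The nitrate transporter gene CMG018C, whose product brings nitrate into the cell, lies on chromosome 7 from 49583 to 51291 in the coordinates of the deposited table. It had 116 FPKM under blue light and 1.52 FPKM in darkness in the authors' deposited table, a ratio of 76.6 with a log2 fold change of 6.26. This was rank 10 among the 4496 finite log2 fold changes of tested genes. The authors' test nevertheless gave a p-value of 0.074 and a q-value of 0.12 there, so the gene was not called. By library, the recovered fragments numbered 93 and 78 under blue light, or 111 and 121 FPKM, against 0 and 3 in darkness, or 0 and 3.03 FPKM. Both blue light libraries were thus far above both darkness libraries, and all darkness fragments came from the shallower library. Pooled over both libraries of a condition, the ratio was 88.3, with an exact 95% interval of 29.7 to 432 that covers counting error only.

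On these recovered libraries the nitrate transporter passed a different test. Limma on log2(FPKM + 1) over all 3032 genes with recovered fragments gave a log2 fold change of 5.87 with a standard error of 0.56 and a Benjamini-Hochberg adjusted p of 1.7e-05. Under the alternatives tried, the adjusted p ran from 1.4e-07 to 0.031, and the log2 fold change from 7.70 with a pseudocount of 0.1 to 3.47 with 10. Of all genes in this limma fit, 53% were called, 28.2% as higher and 24.8% as lower under blue light. The log2 fold change was 4.86 without the deeper darkness library and 6.87 without the shallower one, since the zero lies in the deeper library.

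Genes that were almost silent in darkness were also counted, as a description. The recovery found 13 genes with a valid test and at most 3 darkness fragments, the nitrate transporter among them. The authors' deposited table called 3 of these 13, beside 53.2% of all 4503 tested genes, or 27.1% as higher under blue light. The 13 genes were picked by their low darkness values, so they could hardly be called as lower under blue light. With 13 genes, this count by itself says little, and why the transporter was not called was not tested. Of the 7 among these with at least 50 blue light fragments, the nitrate transporter included, the authors' deposited table called 1. The q-values of these 7 genes lay between 0.00021 and 0.33 in the authors' deposited table. Among the 4496 tested genes with a finite ratio, 11 had at least 64-fold higher FPKM under blue light, and the authors' deposited table called 5. It called 62 of 76 with at least 16-fold, which include these 11. Tested genes at 0 in darkness have no finite ratio and are left out of both counts. The 1 called gene among the 7 above, with 0 and 0 darkness fragments, is left out in this way. These limits were set after the values were seen.

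The nitrate reductase gene CMG019C encodes the enzyme that reduces nitrate to nitrite. It lies 962 bp beyond the nitrate transporter gene, from 52253 to 55109. Its transcript was the scarcest of the group, at 3.05 FPKM under blue light and listed at 0 in darkness in the authors' deposited table, with the status NOTEST and therefore no valid test. The recovered fragments were 5 and 3 under blue light, against 0 and 0 in darkness, so the groups did not overlap but rested on 8 fragments in all. The exact 95% interval of these 8 fragments was 3.45 to 15.8. Set against a floor of 3 fragments over both darkness libraries, or 0.750 FPKM, the pooled level of 3.10 FPKM under blue light was at least 4.14-fold higher. Counting error widens this: the exact 95% interval of the pooled ratio began at 2.65, with no upper limit. In the limma fit over all recovered genes, its log2(FPKM + 1) was higher by 2.01 with a standard error of 0.61 (adjusted p = 0.018). The size of this difference depends on the pseudocount. It was 4.97 with 0.1 (adjusted p = 0.012) and 0.38 with 10 (adjusted p = 0.044).

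The nitrite reductase gene CMG021C, for the enzyme that makes ammonium, follows 1232 bp further on, from 56341 to 58382. It had 35.7 FPKM under blue light and 3.14 FPKM in darkness in the authors' deposited table. This 11.4-fold rise, a log2 fold change of 3.51, passed in the authors' deposited table (q-value 0.0052). Its values were not searched for whole fragments, because the search took only genes that share their locus with no other gene. The gene shares its locus with CMG022C, which the reference gene table of assembly ASM9120v1 places inside it. If all fragments had come from the shallower or all from the deeper library, the values would be worth 56.0 to 72.5 fragments under blue light and 7.56 to 9.95 in darkness. CMG022C had 8.56 FPKM under blue light and 0.00024 FPKM in darkness in the authors' deposited table, with no valid test. The authors' counting could divide the reads of this locus between both genes, and strand is not stated, so each gene's share of the reads is uncertain.

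Glutamine synthetase, which joins ammonium to glutamate, had the most abundant transcript of the group in both conditions. Its gene CMI233C lies on chromosome 9 from 630481 to 631579. In the authors' deposited table it had 5205 FPKM under blue light and 319 FPKM in darkness, a 16.3-fold rise with a log2 fold change of 4.03 and a q-value of 0.00056. Under blue light it ranked 4 among all 5100 genes by FPKM, whereas it ranked 626 in darkness. It took 0.507% of the summed FPKM under blue light and 0.0312% in darkness. Both darkness libraries were close to each other, with 262 and 182 recovered fragments, or 333 and 305 FPKM. The blue light value allowed 63 splits into whole fragments, of 4065 to 5255 fragments in all, so its libraries could not be told apart. Entered into the limma fit, 58 of the 63 splits passed, with adjusted p from 1.6e-08 to 0.53 over all splits. The 5 that did not pass gave the deeper library at most 40 or at least 5087 fragments.

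The transcription factor MYB1 did not pass the authors' test. Its gene CMJ282C, on chromosome 10 from 747118 to 748691, had 225 FPKM under blue light and 288 FPKM in darkness in the authors' deposited table. The log2 fold change of -0.36 did not pass (p-value 0.074 and q-value 0.12 in the authors' deposited table), nor did any member fall at an unadjusted p under 0.05 in that table. By library, the blue light value resolved to 183 and 123 fragments, or 240 and 209 FPKM. The darkness value had 2 solutions, either 349 and 255 fragments, or 294 and 283 FPKM, or else 208 and 362 fragments, or 175 and 401 FPKM. Chance alone would give 1.59 solutions for this darkness value and 0.49 for the blue light value, so these splits are uncertain. In the first solution both darkness libraries lay above both blue light libraries, and in the second the conditions overlapped. Limma gave an adjusted p of 0.053 with the first solution (unadjusted 0.028) and 0.52 with the second (unadjusted 0.44). The log2 fold changes were -0.36 and -0.24 on the log2(FPKM + 1) scale. Neither test passed, which does not show that the level was the same.

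**Figure D1:**
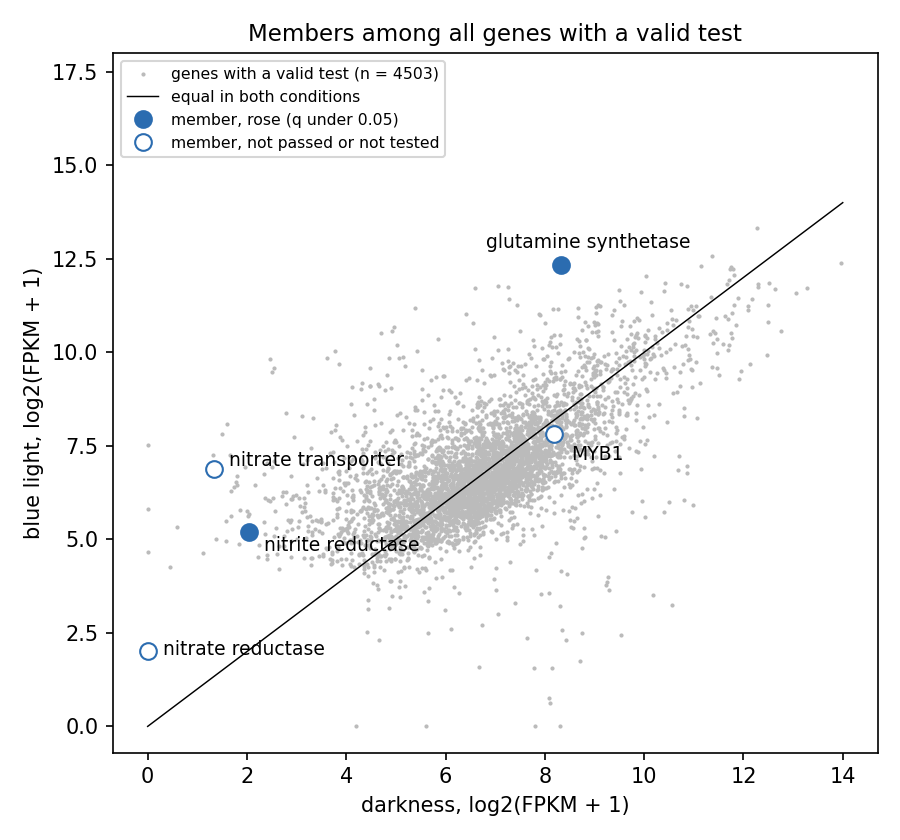
Each point is a gene by its level in darkness (horizontal) and under blue light (vertical), both as log2(FPKM + 1), and the line marks equal levels. The nitrate transporter and nitrite reductase lie at the low end in darkness with 1.52 and 3.14 FPKM, glutamine synthetase lies at the top with 5205 FPKM under blue light, and MYB1 lies within the bulk of genes near the line.

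The order of levels within the group differed little between the conditions, but the distances did. Under blue light, the FPKM of the authors' deposited table ran from glutamine synthetase through MYB1, the nitrate transporter and nitrite reductase to nitrate reductase. In darkness the order in the authors' deposited table was the same except that nitrite reductase stood above the nitrate transporter, 2.07 times its FPKM. That pair of neighbours in the order rests on 3 fragments for the transporter and 7.56 to 9.95 for nitrite reductase, and their difference was not tested. Glutamine synthetase and MYB1 were also close in darkness, where the FPKM ratio was 1.11, and they stood 23.2 times apart under blue light. By library in darkness, the 333 and 305 FPKM of glutamine synthetase lay above MYB1 in the solution of 294 and 283 FPKM and overlapped it in the solution of 175 and 401 FPKM. MYB1 had 1.93 times the FPKM of the nitrate transporter under blue light and 190 times in darkness. Between the chromosome 7 genes under blue light, the transporter had 3.25 times the FPKM of nitrite reductase and 38.1 times that of nitrate reductase. The first of these ratios depends on how the reads of the shared locus were divided. The second rests on 8 fragments of nitrate reductase, and neither was tested.

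The 3 chromosome 7 genes span 8799 bp, with no other gene model between them in the table except CMG022C. The gene models directly beside this stretch did not pass. The one before it, 3233 bp away, had 32.0 FPKM under blue light and 38.4 FPKM in darkness, and did not pass (q-value 0.34, authors' deposited table). The one after it, 2648 bp away, had 73.8 FPKM under blue light and 64.8 FPKM in darkness, and did not pass (q-value 0.50, authors' deposited table). Among 10 gene models on each side, 19 of 20 had a valid test. The authors' deposited table called 4 of these as higher and 4 as lower, beside 27.1% and 26.1% of all 4503 tested genes. The other 11 neighbours did not pass. The median log2 fold change of the 19 was -0.11, from -2.40 to 3.41. The largest rises among these neighbours belonged to an adjacent pair before the stretch, from 39590 to 40295 and from 40648 to 41963. The first had 70.0 FPKM under blue light and 6.58 FPKM in darkness (q-value 0.041), and the second had 57.1 FPKM under blue light and 7.85 FPKM in darkness (q-value 0.0023), in the authors' deposited table. A gene that did not pass separates this pair from the nitrate transporter, and no role is annotated for either in the sources used here.

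**Figure D2:**
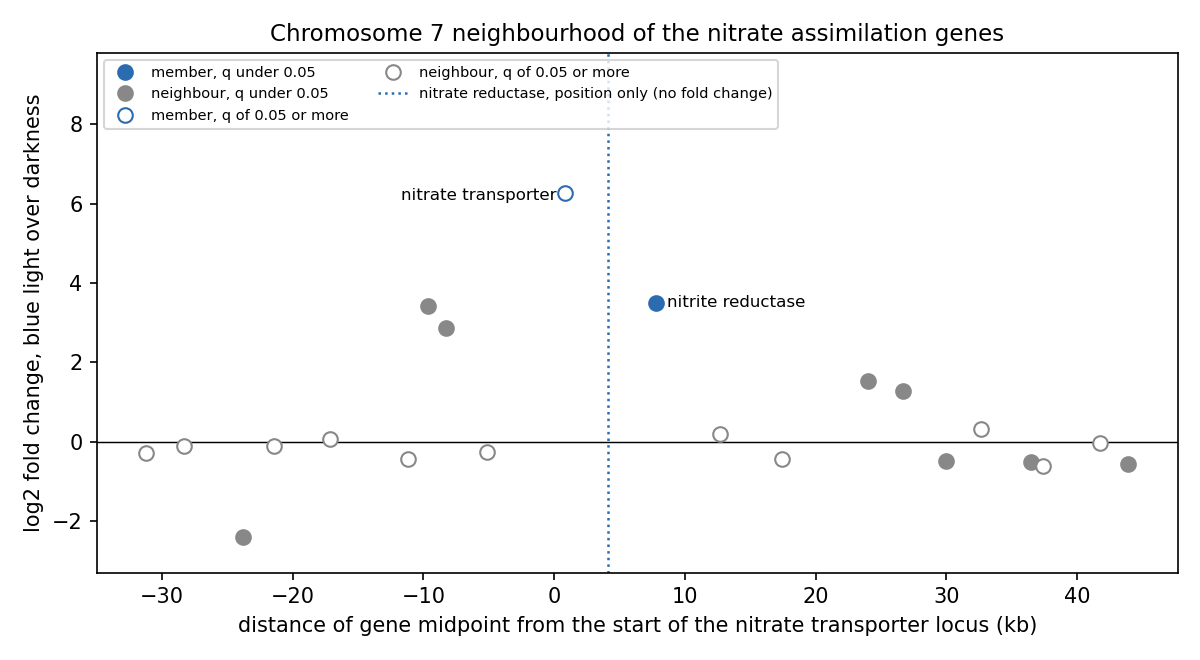
Log2 ratio of blue light to darkness (vertical) for the gene models around the chromosome 7 members, by distance of the gene midpoint from the start of the nitrate transporter locus in kb (horizontal). Filled circles passed at a q-value under 0.05 and open circles did not. The nitrate transporter at 6.26 and nitrite reductase at 3.51 stand above the directly adjacent gene models at -0.26 and 0.19. A pair of neighbours further before the stretch lies at 3.41 and 2.86. The dotted line marks nitrate reductase, which has no fold change.

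Glutamine synthetase and MYB1 were the only members on chromosomes 9 and 10. The gene model next after glutamine synthetase, CMI234C, fell to 85.4 FPKM under blue light, against 177 FPKM in darkness (log2 fold change -1.05, q-value 0.00021 in the authors' deposited table). The nearest tested gene before it, from 622771 to 623662, had 31.0 FPKM under blue light and 7.88 FPKM in darkness and did not pass (q-value 0.054 in the authors' deposited table). Next to MYB1, the gene models from 745402 to 746476 and from 750741 to 752413 did not pass either, with log2 fold changes of -0.40 and -0.27 in the authors' deposited table. Beyond the first of these, the gene model from 741496 to 742786 rose (log2 fold change 1.14, q-value 0.00021 in the authors' deposited table). Beyond the second, the gene model from 755121 to 755665 did not pass, with a log2 fold change of -0.071.

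Genes with levels like those of the members were looked for among 4265 tested nuclear genes at loci of their own, by the distance between log2 FPKM under blue light and in darkness. This likeness covers 2 conditions only. The gene nearest to the transporter was CMR293C, at a distance of 0.38, with 151 FPKM under blue light and 1.49 FPKM in darkness (q-value 0.33 in the authors' deposited table). It was the only gene within a distance of 0.5. These distances are well inside counting error, since the darkness values rest on 3 fragments for the transporter, with an exact 95% interval of 0.62 to 8.77, and on 1 fragment for CMR293C. The nearest gene to nitrite reductase was CMN340C, with 34.2 FPKM under blue light and 2.80 FPKM in darkness (q-value 0.0057 in the authors' deposited table), 1 of 5 within that distance. Glutamine synthetase had 0 genes within it. Its nearest was CMG059C at a distance of 1.18, with 2299 FPKM under blue light and 306 FPKM in darkness (q-value 0.00021 in the authors' deposited table). MYB1, by contrast, had 173 such genes around it.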

How the data were processed

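Per the submitters' processing notes, the authors aligned reads with TopHat2 2.0.5 and ran Cuffdiff. No source used here gives the Cuffdiff version, the genome build or the annotation. Per the file headers, the deposited table holds 1 FPKM per condition, a log2 fold change (blue light over darkness), a test statistic (a score, not used), a p-value and a q-value. Fold changes were recomputed from FPKM and differed from the deposited ones by at most 1.2e-05 in tested genes. The header names a limit of 1.5-fold, yet all genes marked significant were those with q under 0.05. Genes with status NOTEST (558) or LOWDATA (39) had no valid test.

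Sums of whole fragments of 2 libraries were searched for in 3880 genes of at least 650 bp that share their locus with no other gene. The 1 step per library was fitted on genes of this kind. Nitrite reductase, which shares its locus, was not searched. Among values with under 0.05 chance solutions, 99.9% of 1755 under blue light and 99.7% of 1281 in darkness were whole within the rounding of 6 digits. Chance alone would give 0.79 solutions for glutamine synthetase in darkness and, under blue light, 0.49 for MYB1 and 0.28 for the nitrate transporter. Where several solutions were found, chance would give 1.59 for MYB1 in darkness (2 found) and 62.4 for glutamine synthetase under blue light (63 found). Limma 3.58.1 (R 4.3.3, trended prior, Benjamini-Hochberg adjustment) was run on the 3032 genes with 1 solution. Both steps were tested on data simulated from the fitted libraries. The simulation of the search left out genes at 0 in either condition, such as nitrate reductase. The limma simulation changed only genes with more fragments than nitrate reductase had, so neither covers that gene. Intervals cover counting error only.

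The members, lists and tests were chosen with earlier results of these data known. The genes named are the members, the gene model within their chromosome 7 stretch, flanking gene models and the gene nearest in level to each member. A list of other nitrogen genes needed product names and stayed empty: 4750 of 5100 identifiers matched the reference table of assembly ASM9120v1, which gave 0 symbols.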

Additional observations from a re-analysis of the deposited data

How the results depend on the processing

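The count of 2 rises and 0 falls among the members was the same at a q-value under 0.01, with limits of 1.5-fold or 2-fold, and with the adjustment recomputed. Limma, on the 2 members with 1 whole-fragment solution, also gave 2 rises and 0 falls, but of other genes, the nitrate transporter and nitrate reductase. Glutamine synthetase and MYB1 had several solutions, and nitrite reductase was not searched because it shares its locus. Pseudocounts added to the deposited values, centring and scaling by total FPKM say nothing about stability here, since a pseudocount cannot turn a ratio and the median of all genes (-0.017) and the log2 ratio of totals (0.0052) are small beside the smallest member change of -0.36. Without any 1 of the recovered libraries, the limma log2 fold changes were 4.86 to 6.87 for the nitrate transporter. For nitrate reductase they were 1.87 to 2.15. In such a fit a lone library is assumed to vary like the other condition's. For nitrate reductase without a blue light library, the gene's own spread comes from darkness libraries with 0 and 0 fragments. Whether it passed there says little about stability. With pseudocounts of 0.1 and 10, the limma log2 fold changes were 7.70 and 3.47 for the transporter and 4.97 and 0.38 for the reductase. The fit on genes with a valid test alone was added after seeing the data. Percentiles of level shift when untested, mostly scarce genes are left out: under blue light, 56.5 in place of 61.5 for the nitrate transporter, 9.33 in place of 19.6 for nitrite reductase and 79.1 in place of 81.5 for MYB1; in darkness, 0.178 in place of 6.67, 0.622 in place of 8.49 and 84.1 in place of 85.9 for the same genes, and 86.2 in place of 87.7 for glutamine synthetase. With 5 gene models on each side, 4 neighbours rose and 1 fell, because the falls lie further out. No paired analysis was possible because neither the deposited columns nor the recovered libraries carry replicate numbers. Leaving out libraries was not run for glutamine synthetase and MYB1. Depth limits the low values: the darkness levels of the chromosome 7 genes rest on 0 to 10 fragments each.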
